A study of Homo sapiens with 24 samples.

Results

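The 6 genes of the vitamin D pathway and of osteopontin described here were measured in A375 cells made to overexpress the long noncoding RNA SLNCR. They were taken by name, and were chosen by a reading of earlier results, their levels and fold changes in these same libraries. They are CYP2R1, CYP27B1, VDR, RXRA, CYP24A1 and SPP1. All 6 were found among the 28008 genes of the batch 1 table and the 60221 genes of the batch 2 table. All 6 also passed the filter on low counts, which left 14310 genes in batch 1 and 18763 in batch 2.

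A375 is an established human melanoma line that carries a BRAF mutation. SLNCR is a long noncoding RNA linked with melanoma invasion, and the study asks which genes its triplex-forming regions (TFRs, segments thought able to pair with the DNA double helix) regulate. Cells were transfected with a pcDNA3.1 plasmid under a CAG promoter, with either no SLNCR sequence (empty vector), full-length SLNCR (FL) or SLNCR without a single region. Batch 1 held empty vector, FL, ΔTFR1 and ΔTFR2, and batch 2 held empty vector, FL, ΔTFR4 and ΔTFR5, with 3 biological replicates a group and 24 libraries in all. The design text says that some samples were re-analysed from an earlier series, and the labels do not tell which. Every group, the empty vector included, received this plasmid, which also carries a puromycin-resistance gene, by Lipofectamine transfection, and grew for 48 h in 2 µg/mL puromycin in medium with fetal bovine serum. The labels record no added vitamin D. The labels record no picking of clones and no loss of the cells' own SLNCR gene, so a deletion form was present beside the endogenous RNA. Libraries were made from RNA depleted of ribosomal RNA. P-values set each difference between groups against the spread between replicate libraries, estimated over all 12 libraries of a batch. They speak of these samples only.

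Vitamin D is made from a cholesterol precursor and is activated in steps. CYP2R1 is the main 25-hydroxylase, and CYP27B1 is the 1-alpha-hydroxylase that makes the hormone calcitriol. Calcitriol binds the vitamin D receptor, VDR, which pairs with a retinoid X receptor such as RXRA on DNA. CYP24A1, the 24-hydroxylase that breaks calcitriol down, is the classical target gene of the receptor and forms a negative feedback. SPP1 encodes osteopontin, a secreted phosphoprotein that binds integrins and CD44. It is known as a vitamin D target in bone cells and as a marker of invasive melanoma.

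The row that holds SLNCR was higher in each library that received it. Its level, read from the LINC00673 row in batch 1, was 18.9 to 20.8 CPM (counts scaled to library size) with empty vector, 165 to 240 with FL, 191 to 205 with ΔTFR1 and 187 to 206 with ΔTFR2. In batch 2, from the LINC00511 row, it was 27.9 to 30.1 CPM with empty vector, 334 to 728 with FL, 444 to 515 with ΔTFR4 and 192 to 376 with ΔTFR5. In GENCODE 29 the LINC00511 gene also spans the RefSeq locus of LINC00673, which lists SLNCR as a synonym, and the annotation behind the batch 2 counts is not given in the sources used here. The batch 2 row may therefore hold other transcripts of the locus, and its levels are not compared with those of batch 1. Library totals were 8627449 to 10789211 counts in batch 1 and 24810226 to 33063445 in batch 2. Replicates differed more in batch 2, where the common coefficient of biological variation was 0.212 against 0.0503. In batch 2, FL replicate 3 stood apart from the other FL libraries: it held the lowest level of the SLNCR row in the group. FL replicate 1 also stood apart, with lower levels for genes of high GC content (trend between 40% and 60% GC of -0.93 on the log2 scale, against -0.10 to 0.24 in the other 11 libraries). The labels give the cell type as epithelial, and the 6 epithelial markers were mixed. KRT8 and KRT18 carried most of their sum, which was 414.5 to 584 CPM in batch 1 and 293.6 to 698.1 in batch 2. EPCAM stayed under 1 CPM in every library, as did CDH1, KRT5 and KRT14 in batch 1, while 5 of the 6 passed the filter in batch 2. Of 10 melanoma markers, 3 (TYR, DCT and S100B) stayed under 1 CPM in every library, and the summed level of the list was 978.5 to 1040 CPM in batch 1 and 1540 to 2166 in batch 2.

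The levels of the 6 genes in cells with empty vector are compared per kilobase of exon, as a mean ± SD of 3 libraries. In batch 1 they ran from 0.342 ± 0.04 CPM per kb for CYP2R1 through 1.14 ± 0.2 for CYP24A1, 3.09 ± 0.16 for RXRA and 5.06 ± 0.75 for CYP27B1 to 10.3 ± 0.72 for SPP1 and 10.4 ± 0.29 for VDR. SPP1 and VDR did not differ beyond their spread. In batch 2 the order was CYP2R1 at 0.594 ± 0.068, RXRA at 2.02 ± 0.25, CYP24A1 at 2.39 ± 1.2, SPP1 at 5.03 ± 0.73, CYP27B1 at 6.95 ± 0.43 and VDR at 10.2 ± 0.69. There RXRA and CYP24A1 did not differ beyond their spread. The length used was the union of exons over all transcripts of a gene. For RXRA it was 11083 bases, against 5770 for its longest transcript, and another length could change the order.

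The 250 bases before the RefSeq start of SPP1 are shown because its level spanned the widest range of the 6 in batch 2 and because the study asks about RNA binding to DNA, which needs a run of purines on a strand. The region lies on the plus strand at chr4:87975464-87975713 (GRCh38.p14, RefSeq). Capitals mark the RUNX word ACCACA, the reverse complement of TGTGGT, and the longest run of purines, AGAGGGGGAAG.

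SPP1 promoter: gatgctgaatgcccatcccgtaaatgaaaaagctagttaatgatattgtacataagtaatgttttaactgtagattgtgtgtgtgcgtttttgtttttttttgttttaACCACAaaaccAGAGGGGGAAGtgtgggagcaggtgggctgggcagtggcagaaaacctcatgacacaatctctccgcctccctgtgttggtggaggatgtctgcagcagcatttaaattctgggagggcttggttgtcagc

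The RUNX word begins 142 bases before the start and is held by 11% of 35114 promoters of the same length. The purine run covers 11 bases, from 131 to 121 before the start, and 52.5% of promoters hold a run of purines or of pyrimidines at least that long, the median longest run being 11. The window was 44.8% GC. Searched on both strands, it held 1 ETS word GGAA (in 92.7% of promoters) and 1 E-box CANNTG (61.8%). It held no AP-1 word TGANTCA (6.57%) and no SP1 word GGGCGG (42.6%). It also held no direct repeat of VDR half-sites (AGGTCA and GGGTCA as well as AGTTCA and GGTTCA, with 3 bases between), which 0.0655% of promoters hold. The ETS word GGAA lies within the purine run. A promoter of RXRA also held 1 RUNX word, and a promoter of CYP2R1 held a longer run, of 12 bases. CYP24A1, CYP27B1 and VDR had no promoter entry in the sources used here. These are matches of letters only.

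Batch 2 held the changes of the vitamin D target and of osteopontin. With ΔTFR4, CYP24A1, SPP1 and VDR fell against empty vector, and with ΔTFR5, CYP24A1 and SPP1 fell. These 3 and 2 of 6 members stand beside 23.9% and 10.2% of all genes tested that were called in the same comparisons. The p-values of the 6 genes describe these libraries, since the genes were chosen with earlier results known. Log2 fold changes below carry their standard error and an adjusted p from edgeR's quasi-likelihood test over all genes tested, with a call at an adjusted p under 0.05. All comparisons against empty vector in a batch share the same 3 empty-vector libraries, and those against FL share the same 3 FL libraries.

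**Figure D1:**
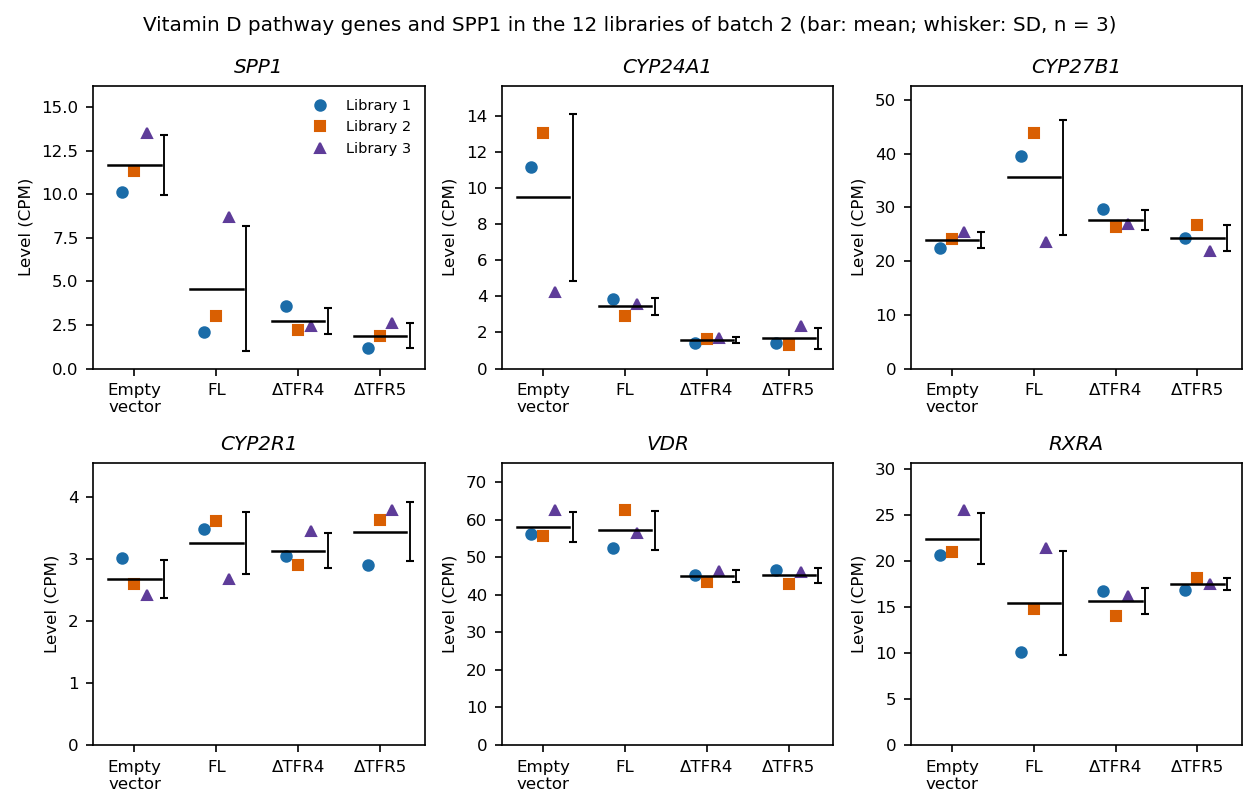
Level in CPM (y axis, from 0) of the 6 genes in the 12 libraries of batch 2, by group, with a marker per library, a bar at the mean and a whisker for the SD of 3 libraries. CYP24A1 and SPP1 are lowest with ΔTFR4 and ΔTFR5, and the SPP1 level of FL replicate 3 (8.68 CPM) lies well above the other 2 FL libraries.

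CYP24A1 (chromosome 20, minus strand, 54153449 to 54173973 in GRCh38 by GENCODE 29) was 11.2, 13.05 and 4.24 CPM with empty vector in batch 2. It was 3.84, 2.92 and 3.59 CPM with FL, 1.39, 1.62 and 1.71 with ΔTFR4, and 1.39, 1.28 and 2.33 with ΔTFR5. Each library with a deletion form lay below each FL library, and each FL library lay below each empty-vector library, while ΔTFR4 and ΔTFR5 overlapped. In a bulk library, fewer cells that express a gene and less RNA per cell cannot be told apart. Against empty vector the log2 fold change was -2.59 ± 0.37 with ΔTFR4 (adjusted p = 0.000948), a 6.01-fold lower level, and -2.51 ± 0.37 with ΔTFR5 (adjusted p = 0.00245), 5.68-fold lower. Empty-vector replicate 3 was the low one of its group, and without it the folds were 7.72 and 7.25. Both falls were called in all 15 alternatives. The summed level of the 10 melanoma markers was 1581 to 1605 CPM with empty vector, 1540 to 2105 with FL, 2021 to 2166 with ΔTFR4 and 1763 to 1811 with ΔTFR5, and its part in the falls of CYP24A1 and SPP1 was not tested.

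With FL, CYP24A1 was 2.75-fold below empty vector, a log2 fold change of -1.46 ± 0.35 (adjusted p = 0.0593), which missed the threshold. It passed with DESeq2 (adjusted p = 0.00287), with no filter on low counts (0.0061) and with the GC trend removed (0.0426, and 0.0362 with the replicate block as well). It also passed without empty-vector replicate 3 (0.0251) and without FL replicate 3 (0.0137). Against FL, CYP24A1 differed by -1.13 ± 0.37 with ΔTFR4 (adjusted p = 0.095) and by -1.05 ± 0.37 with ΔTFR5 (adjusted p = 0.137). The first of these passed with DESeq2 (0.0322) and with no filter (0.0497). ΔTFR5 and ΔTFR4 differed by 0.08 ± 0.38 (adjusted p = 0.971).

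SPP1 (chromosome 4, plus strand, 87975650 to 87983426) was 10.2, 11.4 and 13.5 CPM with empty vector in batch 2. It was 2.07, 2.99 and 8.68 CPM with FL, 3.59, 2.23 and 2.42 with ΔTFR4, and 1.15, 1.89 and 2.60 with ΔTFR5. All 9 libraries with SLNCR lay below all empty-vector libraries, and the 3 SLNCR groups overlapped. The fall against empty vector was -2.09 ± 0.45 with ΔTFR4 (adjusted p = 0.00605), 4.25-fold, and -2.63 ± 0.46 with ΔTFR5 (adjusted p = 0.00554), 6.18-fold. Both were called in all 15 alternatives.

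The call of osteopontin with FL turned on a single library and on the model. SPP1 differed from empty vector by -1.35 ± 0.43 (adjusted p = 0.0935), 2.54-fold lower, and FL replicate 3 was the high library of the group. A link between its level of SPP1 and its level of the SLNCR row was not tested. Without FL replicate 3 the difference was -2.22 ± 0.32 (adjusted p = 0.000364), 4.65-fold lower. With all libraries it was called by DESeq2 (adjusted p = 0.024) and with the replicate block and the GC trend removed (0.04). Against FL, SPP1 differed by -0.74 ± 0.45 with ΔTFR4 (adjusted p = 0.336) and by -1.28 ± 0.46 with ΔTFR5 (adjusted p = 0.14, and 0.0487 with DESeq2). Without FL replicate 3 these became 0.12 ± 0.32 and -0.42 ± 0.32 (adjusted p = 0.819 and 0.382). ΔTFR5 and ΔTFR4 differed by -0.54 ± 0.47 (adjusted p = 0.752).

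VDR (chromosome 12, minus strand, 47841537 to 47943048, overlapped on the other strand by AC121338.1 and AC121338.2) was 56.1, 55.6 and 62.7 CPM with empty vector. It was 52.5, 62.7 and 56.4 CPM with FL, 45.4, 43.4 and 46.5 with ΔTFR4, and 46.6, 42.8 and 46.1 with ΔTFR5. The receptor was lower in the 6 libraries with a deletion form than in all 6 others. The fall with ΔTFR4 against empty vector was small, -0.37 ± 0.11 (adjusted p = 0.0277), 1.29-fold. The difference with ΔTFR5 was of a like size, -0.36 ± 0.11 (adjusted p = 0.0508, and 0.00615 with DESeq2). The ΔTFR4 call was lost when each of the 6 libraries compared was left out in turn (adjusted p from 0.0618 to 0.115) and with no filter (0.148). FL and empty vector differed by -0.02 ± 0.11 (adjusted p = 0.907). Against FL, VDR differed by -0.34 ± 0.11 with each deletion form (adjusted p = 0.0878 with ΔTFR4 and 0.112 with ΔTFR5), which DESeq2 called (0.0186 and 0.0294), as did the fit with the GC trend removed (0.012 and 0.0238).

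RXRA (chromosome 9, plus strand, 134317098 to 134440585) was 20.7, 20.98 and 25.6 CPM with empty vector in batch 2. It was 10.1, 14.8 and 21.4 CPM with FL, 16.7, 14.1 and 16.2 with ΔTFR4, and 16.9, 18.2 and 17.5 with ΔTFR5. Each library with a deletion form lay below each empty-vector library, and the FL libraries ran from below all other libraries to within the empty-vector range. RXRA differed from empty vector by -0.54 ± 0.22 with FL (adjusted p = 0.142), -0.52 ± 0.22 with ΔTFR4 (0.0973) and -0.36 ± 0.21 with ΔTFR5 (0.312). Its longest transcript is 60.6% GC, and its lowest level was in FL replicate 1, the library with the GC trend. A link between that low level and the GC trend was not tested. With that trend removed from each library, the FL difference was -0.37 ± 0.14 (adjusted p = 0.109) and the ΔTFR4 difference was called (0.0105). Without FL replicate 1 the FL difference was -0.30 ± 0.16 (adjusted p = 0.317), and without FL replicate 3 it was -0.86 ± 0.17 (adjusted p = 0.00281).

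CYP27B1 (chromosome 12, minus strand, 57762334 to 57768986, overlapped on the same strand by METTL1) had a higher mean with FL than with empty vector in batch 2, without a call. It was 22.4, 24.1 and 25.3 CPM with empty vector and 39.5, 43.8 and 23.5 with FL. It was 29.7, 26.3 and 26.8 CPM with ΔTFR4, and 24.4, 26.7 and 21.8 with ΔTFR5. FL replicates 1 and 2 lay above all 10 other libraries, and FL replicate 3 lay within the empty-vector range. FL differed from empty vector by 0.58 ± 0.19 (adjusted p = 0.0981, 0.0458 with DESeq2, and 0.046 with the replicate block and the GC trend removed). Without FL replicate 3 the difference was 0.79 ± 0.13 (adjusted p = 0.000604), 1.73-fold. Without FL replicate 1 or 2 it was 0.50 ± 0.19 and 0.39 ± 0.19 (adjusted p = 0.209 and 0.243). ΔTFR4 and ΔTFR5 differed from empty vector by 0.21 ± 0.19 and 0.02 ± 0.19 (adjusted p = 0.462 and 0.955). Against FL they differed by -0.37 ± 0.19 and -0.55 ± 0.19 (adjusted p = 0.264 and 0.133), and without FL replicate 3 by -0.60 ± 0.13 and -0.78 ± 0.13 (0.0142 and 0.00189). Without FL replicate 2 these were -0.18 ± 0.19 and -0.36 ± 0.19 (0.557 and 0.284).

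CYP2R1 (chromosome 11, minus strand, 14877440 to 14892252) was 3.02, 2.61 and 2.42 CPM with empty vector in batch 2, and 3.48, 3.62 and 2.69 with FL. It was 3.05, 2.91 and 3.46 CPM with ΔTFR4, and 2.90, 3.63 and 3.80 with ΔTFR5. The 4 groups overlapped in the order of their means, and none of the 6 comparisons was called. Differences from empty vector were 0.28 ± 0.21 with FL, 0.23 ± 0.21 with ΔTFR4 and 0.36 ± 0.21 with ΔTFR5.

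In batch 2, 0 of 6 members were called by edgeR in FL against empty vector, where 1.16% of all genes were called. There 4 members had an unadjusted p under 0.05 (CYP24A1, CYP27B1, RXRA and SPP1), as did 4933 of all 18763 genes. DESeq2 called 3 members and 2057 of all genes. In ΔTFR4 against FL edgeR called 0 members (4.36% of all genes), and 2 had an unadjusted p under 0.05 (4313 of all genes). DESeq2 called 2 members there (1929 of all genes). In ΔTFR5 against FL edgeR called 0 (1.38% of all genes), and 4 had an unadjusted p under 0.05 (3897 of all genes). DESeq2 called 2 members there (1457 of all genes). Between ΔTFR5 and ΔTFR4 (0.453% of all genes) edgeR and DESeq2 called 0 members, and 0 had an unadjusted p under 0.05. Of all genes, DESeq2 called 239 there, and 1820 had an unadjusted p under 0.05. Against empty vector, DESeq2 called 3 members with each deletion form, the same 3 genes: CYP24A1, VDR and SPP1. Of all 18763 genes it called 5342 with ΔTFR4 and 2952 with ΔTFR5.

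**Figure D2:**
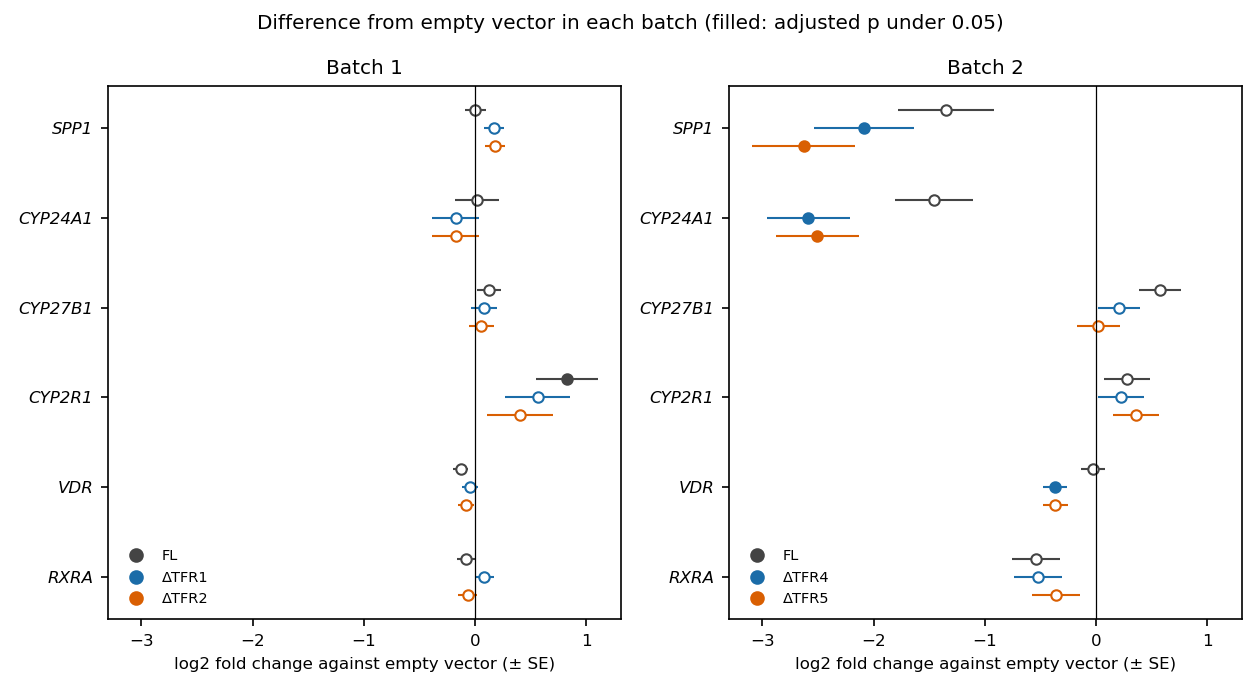
Log2 fold change against empty vector (x axis) with its standard error for the 6 genes in batch 1 (left) and batch 2 (right), with a colour for each construct and filled points for an adjusted p under 0.05. In batch 1 the points of 5 genes lie near 0 and CYP2R1 is at 0.83 with FL, while in batch 2 SPP1 and CYP24A1 reach -2.63 and -2.59.

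The members also spanned other ranges in batch 1. Over its 12 libraries the highest value was 1.32 times the lowest for SPP1, 1.62 for CYP24A1, 1.17 for VDR, 1.29 for RXRA, 1.31 for CYP27B1 and 2.24 for CYP2R1. In batch 2 the same ratio was 11.7 for SPP1, 10.2 for CYP24A1, 1.46 for VDR, 2.54 for RXRA, 2.01 for CYP27B1 and 1.57 for CYP2R1. The ratio was thus wider in batch 2 for each member but CYP2R1, for which it was narrower. The common coefficient of biological variation over all genes tested was also higher in batch 2 (0.212 against 0.0503). The share of all genes with a wider ratio there was not counted. The 2 tables were made in different ways and were fitted apart, so the difference between batches was not tested.

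SPP1 in batch 1 was 21.9, 24.7 and 25.0 CPM with empty vector and 24.03, 26.2 and 21.2 with FL. It was 26.3, 26.7 and 27.5 CPM with ΔTFR1, and 27.5, 28.1 and 25.5 with ΔTFR2. The deletion forms lay above empty vector in each library, by 0.17 ± 0.09 and 0.18 ± 0.09, without a call (adjusted p = 0.992 and 0.994). FL and empty vector overlapped and differed by 0.00 ± 0.09 (adjusted p = 0.986). CYP24A1 was 4.85, 5.15 and 3.63 CPM with empty vector, 4.53, 4.86 and 4.42 with FL, 4.82, 3.82 and 3.47 with ΔTFR1, and 4.85, 3.17 and 4.16 with ΔTFR2. All 4 groups overlapped, on 30 to 52 counts a library, and FL differed from empty vector by 0.02 ± 0.20 (adjusted p = 0.962).

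CYP2R1 was the member called in batch 1. It was 1.75, 1.40 and 1.49 CPM with empty vector and 2.59, 2.62 and 3.13 with FL, so that all FL libraries lay above all empty-vector libraries. It was 2.87, 1.96 and 2.08 CPM with ΔTFR1 and 2.31, 1.90 and 1.97 with ΔTFR2, which overlapped or lay between them. The rise with FL was 0.83 ± 0.28 (adjusted p = 0.0293), 1.78-fold, on 13 to 29 counts a library. It lost its call with the GC trend removed (0.69 ± 0.28, adjusted p = 0.188). It also lost it without empty-vector replicate 1, 2 or 3 (0.0651, 0.0915 and 0.0599) and without FL replicate 1 or 3 (0.05 and 0.116). The 3 FL libraries of batch 1 had GC trends of -0.38 to -0.11, against 0.01 to 0.22 in the 9 others, and the longest CYP2R1 transcript is 40.9% GC. The part of these trends in the rise was not tested. The summed level of the 6 epithelial markers, of which KRT8 and KRT18 alone passed the filter, was 414.5 to 469.2 CPM with FL and 525.4 to 584 with empty vector, and its part in the rise was not tested. DESeq2 gave no adjusted p for this gene, its log2 fold change being 0.85 ± 0.36.

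VDR, RXRA and CYP27B1 gave no call in batch 1. VDR was 57.8 to 60.9 CPM with empty vector, 52.1 to 57.9 with FL, 54.9 to 60.97 with ΔTFR1 and 53.4 to 60.02 with ΔTFR2. FL differed from empty vector by -0.13 ± 0.07 (adjusted p = 0.181). RXRA ran from 30.4 to 39.2 CPM and CYP27B1 from 15.7 to 20.6 CPM over the 12 libraries, with differences of -0.08 ± 0.08 and 0.13 ± 0.11 for FL against empty vector.

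The 1 called member of 6 in FL against empty vector stands beside 22.7% of all genes called there. In ΔTFR1 against FL (10.1% of all genes), ΔTFR2 against FL (10%), ΔTFR1 against empty vector (0.00699%), ΔTFR2 against empty vector (0.014%) and ΔTFR2 against ΔTFR1 (0%), edgeR called 0 members. In those 5 comparisons 0 members had an unadjusted p under 0.05 and DESeq2 called 0, with no adjusted p for 3 members in each comparison of a deletion form with FL. In the same order, 3954, 3884, 589, 597 and 551 of all 14310 genes had an unadjusted p under 0.05. DESeq2 called 1350, 1408, 1, 2 and 0 of all genes.

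**Figure D3:**
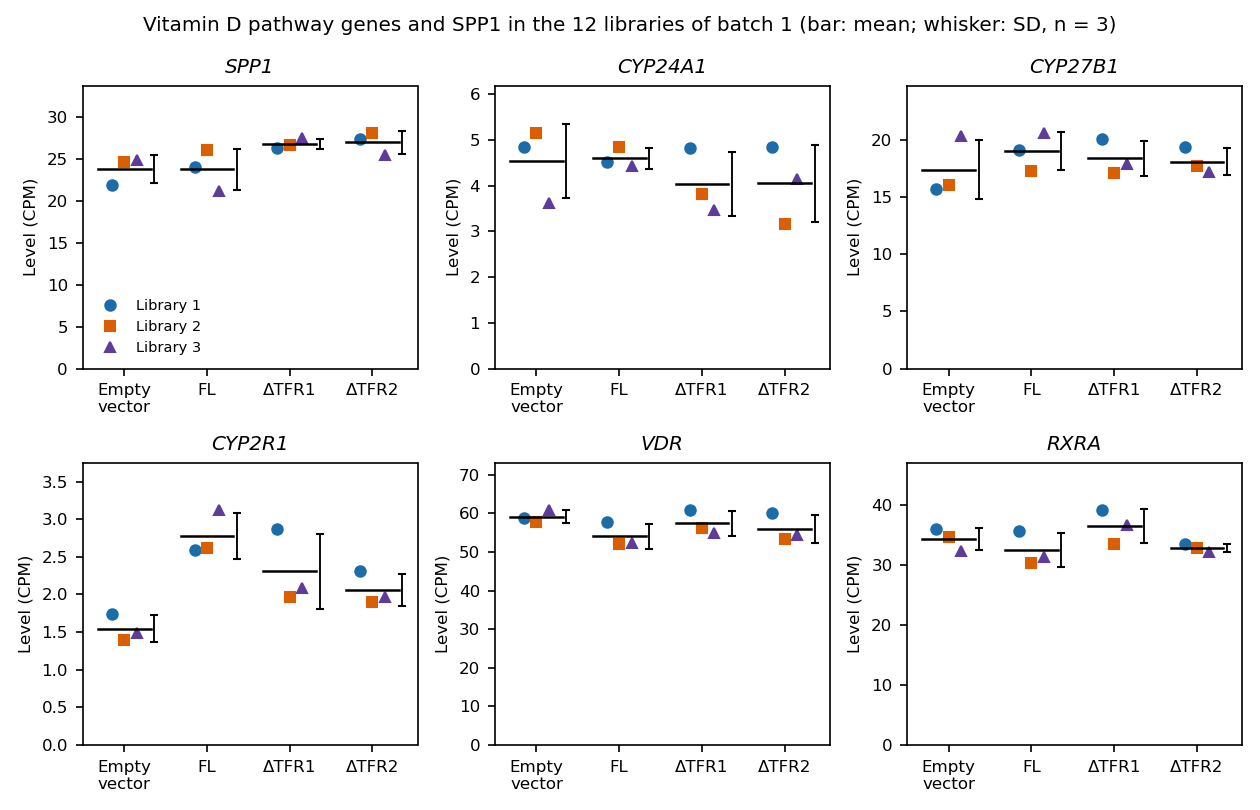
Level in CPM (y axis, from 0) of the 6 genes in the 12 libraries of batch 1, by group, with a marker per library, a bar at the mean and a whisker for the SD of 3 libraries. SPP1 stays between 21.2 and 28.1 CPM, and CYP2R1 is at 2.59 to 3.13 CPM with FL and at 1.40 to 1.75 with empty vector.

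Other genes of the pathway were read from 6 lists of 83 genes in all, of which 51 were tested in batch 1 and 59 in batch 2. In batch 2, 8 of 59 rose and 11 fell with ΔTFR4 against empty vector (32.2%, against 23.9% of all genes). With ΔTFR5 3 rose and 4 fell (11.9%, against 10.2%), and with FL 3 rose and 0 fell (5.08%, against 1.16%). In batch 1, 5 of 51 rose and 10 fell with FL (29.4%, against 22.7%), while with ΔTFR1 or ΔTFR2 0 were called against empty vector. The lists were chosen with earlier results of these data known, and their counts are a description.

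Among genes of vitamin D synthesis, transport and clearance, 10 of 16 were tested in batch 2. With ΔTFR4 against empty vector 2 rose and 1 fell, and with ΔTFR5 1 rose and 1 fell, with list medians of -0.33 and -0.19 on the log2 scale against 0.02 and 0.02 over all genes. CYP27A1, a mitochondrial enzyme that can also add the 25-hydroxyl group, was 3.39, 2.68 and 3.60 CPM with empty vector, 9.50, 9.29 and 10.3 with ΔTFR4 and 9.90, 8.84 and 6.25 with ΔTFR5. All deletion libraries lay above all empty-vector libraries, and it rose by 1.59 ± 0.20 (adjusted p = 0.000558) and 1.37 ± 0.20 (adjusted p = 0.00232). CYP11A1, which cleaves the cholesterol side chain and can hydroxylate vitamin D, rose by 1.06 ± 0.24 with ΔTFR4 (adjusted p = 0.00863). DHCR7, which draws the common precursor 7-dehydrocholesterol into cholesterol, was 105.1, 112.4 and 118.7 CPM with empty vector, 63.9, 58.02 and 61.6 with ΔTFR4 and 61.5, 62.8 and 61.5 with ΔTFR5. It fell by 0.87 ± 0.18 and 0.86 ± 0.18 on the log2 scale (adjusted p = 0.00441 and 0.0111). In batch 1 FDXR, the reductase that feeds electrons to the mitochondrial hydroxylases, was 25.8 to 26.1 CPM with empty vector and 17.04 to 20.8 with FL, and it fell by 0.46 ± 0.10 (adjusted p = 0.00157). It was higher with ΔTFR1 and ΔTFR2 than with FL, by 0.37 ± 0.10 and 0.43 ± 0.10 (adjusted p = 0.0187 and 0.0108). With the GC trend removed, 0 of the 7 genes of this list tested in batch 1 were called in FL against empty vector or in ΔTFR1 or ΔTFR2 against FL. Of all 14310 genes, 333, 17 and 35 were called in these comparisons with that trend removed.

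Of the 14 partners and coregulators of VDR, all were tested in batch 2 and 13 in batch 1. With ΔTFR4 against empty vector 0 rose and 3 fell, with a list median of 0.03, and with ΔTFR5 0 were called. RXRG, the gamma form of the retinoid X receptor, was at 0 counts in each ΔTFR4 library, at 6 to 21 counts with empty vector, 1 to 11 with FL and 31 to 38 with ΔTFR5. Set against a floor of 3 counts over the ΔTFR4 group, its pooled level was 12.8-fold higher with empty vector, 5.43-fold with FL and 34.8-fold with ΔTFR5. These folds leave out the spread between the libraries of a group. The coregulator TRIM24 fell by 0.48 ± 0.14 (adjusted p = 0.0271), and PDIA3, a chaperone also described as a membrane binder of calcitriol, fell by 0.35 ± 0.12 (adjusted p = 0.0498). In batch 1, 3 of 13 fell with FL, among them the receptor RXRB by 0.26 ± 0.08 (adjusted p = 0.0207) and the acetyltransferase CREBBP by 0.19 ± 0.05 (0.00542).

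VDR target genes known from other tissues moved both ways. In batch 2, 3 of 17 tested rose and 2 fell with ΔTFR4 against empty vector, and 1 rose and 1 fell with ΔTFR5, with medians of 0.14 and -0.03. TXNIP, the thioredoxin-binding protein first cloned as induced by vitamin D, was 36.4, 39.5 and 24.7 CPM with empty vector, 1087, 662.7 and 84.6 with FL, 1287, 1307 and 977.6 with ΔTFR4 and 795.3, 1022 and 314 with ΔTFR5. All libraries with SLNCR lay above empty vector, with FL replicate 3 the lowest of them. The rises were 4.19 ± 0.80, 5.15 ± 0.83 and 4.40 ± 0.81 (adjusted p = 0.0458, 0.00275 and 0.0106). GADD45A, a stress-response gene, rose by 2.42 ± 0.45 with ΔTFR4 (adjusted p = 0.00324) and by 2.05 ± 0.44 with FL (adjusted p = 0.0496). The rises of TXNIP and GADD45A with FL were not called without FL replicate 1, when 0 of 17 were. In that setting 50 of all 19234 genes were called with FL, against 217 of 18763 in the main fit. PTHLH, a gene that vitamin D lowers in other cells, was 5.71 to 8.29 CPM with empty vector, and fell by 1.09 ± 0.22 with ΔTFR4 (adjusted p = 0.00484) and by 0.76 ± 0.22 with ΔTFR5 (adjusted p = 0.0458). In batch 1 TXNIP was 7.73 to 13.1 CPM with empty vector and 11.5 to 12.2 with FL, which overlapped.

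The receptors of osteopontin were measured beside their ligand. In batch 2, 0 of 10 tested rose and 4 fell with ΔTFR4 against empty vector, and 1 rose and 2 fell with ΔTFR5, with medians of -0.42 and -0.15. ITGB3, the beta subunit of the integrin that binds the RGD motif of osteopontin and itself also listed as a VDR target, was 26.2, 25.9 and 23.8 CPM with empty vector. It was 14.2, 15.7 and 17.7 CPM with FL, 5.64, 5.10 and 6.77 with ΔTFR4, and 20.2, 18.1 and 25.6 with ΔTFR5. The ΔTFR4 libraries lay below all others, and the ΔTFR5 libraries overlapped with empty vector. It fell by 2.12 ± 0.17 with ΔTFR4 against empty vector (adjusted p = 2.31e-05) and by 1.44 ± 0.17 against FL (0.0012), and it was higher with ΔTFR5 than with ΔTFR4 by 1.87 ± 0.17 (7.55e-05). ITGA4, the alpha-4 subunit, fell by 0.74 ± 0.16 with ΔTFR4 and by 0.55 ± 0.16 with ΔTFR5 (adjusted p = 0.00594 and 0.0419). ITGA5 fell by 0.45 ± 0.12 with ΔTFR4 (adjusted p = 0.0189). ITGA9, on 1 to 5 counts with ΔTFR4 and 16 to 21 with empty vector, fell by 2.21 ± 0.63 (adjusted p = 0.022). ITGB8 rose by 0.67 ± 0.16 with ΔTFR5 (adjusted p = 0.0193). ITGB6 was called lower with ΔTFR5 on counts of 0, 1 and 0 against 20, 23 and 3, too few for a fold. CD44, the hyaluronan receptor that also binds osteopontin, was 1236 to 1325 CPM with empty vector and 1029 to 1130 CPM with ΔTFR4, without a call. In batch 1, CD44 rose with FL by 0.19 ± 0.04 (adjusted p = 0.00173) and ITGAV by 0.28 ± 0.06 (0.00129), among 4 of 8 that rose and 1 that fell.

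Of 10 genes of the osteopontin family and its processing, 3 were tested. MMP3, a protease that cleaves osteopontin, was 35.9, 29.1 and 44.7 CPM with empty vector, 10.8, 14.9 and 41.8 with FL, 6.37, 3.89 and 5.65 with ΔTFR4 and 10.2, 8.02 and 25.4 with ΔTFR5. As for SPP1, FL replicate 3 was the high library of its group. MMP3 fell by 2.78 ± 0.52 with ΔTFR4 against empty vector (adjusted p = 0.00331), and TGM2, a transglutaminase that crosslinks osteopontin, fell by 0.45 ± 0.14 (adjusted p = 0.029). The list median was -0.77 with ΔTFR4 and -0.33 with ΔTFR5. In batch 1 FAM20C, the kinase that phosphorylates osteopontin, fell with FL by 0.44 ± 0.13 (adjusted p = 0.0169), as did TGM2 by 0.15 ± 0.04 (0.00815).

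Of 7 transcription factors known at the SPP1 promoter, 6 were tested. In batch 2, 3 of 6 rose and 0 fell with ΔTFR4 against empty vector, with a median of 0.63, and with ΔTFR5 0 were called, with a median of 0.28. JUN, an AP-1 subunit, was 33.1, 32.3 and 36.1 CPM with empty vector and 205.1, 220.2 and 194.1 with ΔTFR4, and it rose by 2.61 ± 0.59 (adjusted p = 0.0104). RUNX2, the bone factor whose word stands in the promoter shown above, was 19.9, 19.6 and 17.3 CPM with empty vector and 32.2, 32.3 and 34.2 with ΔTFR4, and it rose by 0.80 ± 0.22 (adjusted p = 0.0178). A link between the levels of RUNX2 and SPP1 was not tested. ETS1 rose by 0.70 ± 0.22 with ΔTFR4 (adjusted p = 0.0315) and by 1.17 ± 0.22 with FL (0.042). MITF, the melanocyte lineage factor, was lower with ΔTFR5 than with FL by 1.17 ± 0.23 (adjusted p = 0.0327). In batch 1 JUN fell with FL by 0.43 ± 0.10 (adjusted p = 0.00401).

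**Figure D4:**
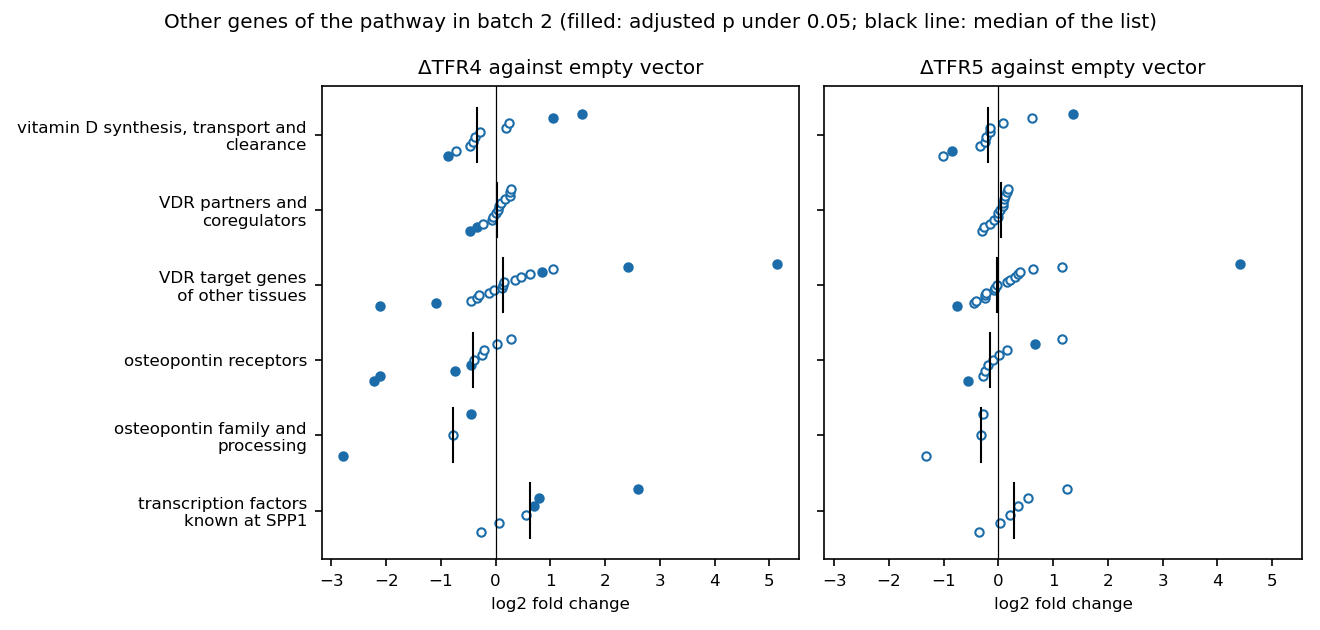
Log2 fold change (x axis) of the other pathway genes in batch 2 with ΔTFR4 (left) and ΔTFR5 (right) against empty vector, by list, with a point per gene tested, filled for an adjusted p under 0.05, and a black line at the median of the list. RXRG and ITGB6, which have too few counts for a fold, are left out of the points. TXNIP is the point at 5.15 and 4.40, and ITGB3 stands at -2.12 with ΔTFR4 in both lists that hold it.

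Without FL replicate 3 or replicate 1, which share the estimate of the spread, the counts of pathway genes moved. Without replicate 3, genes called with FL against empty vector became 1 up and 3 down of 10 for synthesis, 4 up and 3 down of 17 for VDR targets, and 4 up and 0 down of 6 for factors at SPP1. For VDR partners they became 2 up and 1 down of 14, and for osteopontin receptors 0 up and 1 down of 10. The list of osteopontin family and processing had 0 up and 2 down of 3. Over all genes, 5966 of 19409 were called in that setting. Without replicate 1, 0 genes of any list and 50 of all 19234 genes were called with FL against empty vector. With ΔTFR4 against empty vector, osteopontin receptors became 7 down of 10 without replicate 1 and stayed at 4 down without replicate 3. Over all genes, 7329 of 19234 and 5964 of 19409 were called in these settings, against 4489 of 18763 in the main fit. In batch 1, with the GC trend removed, FL against empty vector had 1 of 15 VDR targets and 1 of 8 osteopontin receptors called, both up, and 0 genes of the other lists. There 333 of all 14310 genes were called.

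The genes whose level followed each member most closely over the 12 libraries of a batch are given as a description, by Pearson's r of log2 CPM. Genes with a mean log2 CPM under 1 were left out. These libraries share their batch, groups and depth. In batch 2 they were BLM, IDI1 and MTBP for CYP24A1 (r = 0.935, 0.925 and 0.924) and BATF3, OIP5 and PSMC2 for SPP1 (0.968, 0.965 and 0.96). For VDR they were WDR82, P2RX5 and TOE1 (0.955, 0.954 and 0.953), and for RXRA they were PCYT2, HIST1H2BN and RAB11B (0.99, 0.985 and 0.985). For CYP27B1 they were CLCF1, CDC42EP2 and AMOTL2 (0.978, 0.962 and 0.961), and for CYP2R1 AC011043.1, TDRD3 and CALCOCO2 (0.874, 0.867 and 0.866). In batch 1 they were GBP1, TMED6 and TICRR for CYP24A1 (0.876, 0.839 and 0.83), POU2F3, GNL2 and H1FX-AS1 for SPP1 (0.854, 0.848 and 0.841), and INTS6, MED13 and LRRIQ3 for CYP2R1 (0.942, 0.903 and 0.892). CYP27B1 was nearest to PLCB4, WASHC3 and OTOGL (0.929, 0.911 and 0.879), VDR to PITPNM3, AFG3L1P and SPIRE2 (0.888, 0.873 and 0.853), and RXRA to MCRS1, SPG7 and KAT6B (0.859, 0.853 and 0.85). No member had the same nearest gene in both batches.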

How the data were processed

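The authors deposited raw counts per gene symbol for batch 1 and salmon estimated counts per gene for batch 2, per the file headers, and the estimated counts were rounded to whole numbers. Tools listed in the submitters' processing notes are STAR 2.7.3a, Subread 1.6.2 with featureCounts, DESeq2 1.24.0, FastQC 0.11.5 and cutadapt 2.5, and the builds listed are GRCm38 and GRCh38, in no stated role. For salmon's version, the annotation and the strand setting the answer is the same: not given in the sources used here. Thus reads of VDR and of AC121338.1 and AC121338.2, on the other strand, may be shared. Reads of CYP27B1 and METTL1, on the same strand, may be shared under any strand setting. In batch 1, 27 symbols had become dates and entered no list. No columns were left unused.

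Each batch was fitted apart with edgeR 4.0.16 in R 4.3.3: filterByExpr (minimum count 10, minimum total 15), TMM, a model of all 12 libraries and the robust quasi-likelihood test, with p-values adjusted by Benjamini-Hochberg over all genes tested. CPM use TMM library sizes, log2 CPM had a prior count of 2, and a standard error is |log2 fold change|/sqrt(F). CPM and fold changes of genes with few counts are the least precise. The code was tested on simulated data. Alternatives were DESeq2 1.42.0 (no adjusted p where it gives none), RLE, no filter, a replicate block, GC trends removed (lowess span 0.3, GENCODE 29 transcripts), the 2 groups alone, and each library left out. Leaving FL replicate 1 or 3 of batch 2 out of comparisons without FL was added after seeing the data.

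The members and lists were chosen with earlier results of these data known. Named genes are the 6 members, up to 4 called genes per list and comparison with the lowest adjusted p, and the 3 closest patterns per member and batch. Values of CD44 in batch 2 and TXNIP in batch 1, which were not called, were added after they were seen. Replicates differed by more than counting noise in each pair: their chi-square per gene was 1.5 to 6.98 (batch 1) and 8.23 to 227 (batch 2). Promoters and annotation are from RefSeq (GRCh38.p14) and GENCODE 29. A few items withheld for evaluation are not reported here.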

Additional observations from a re-analysis of the deposited data

How the results depend on the processing

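The falls of CYP24A1 and SPP1 with ΔTFR4 and ΔTFR5 against empty vector kept their call in every alternative run. Other counts of members called moved. In batch 1 FL against empty vector (1 called), 0 were called with the GC trend removed, 0 with the replicate block and the GC trend removed together, and 0 to 1 when a library was left out. In batch 2 FL against empty vector (0 called), the count was 1 with no filter, 1 with the GC trend removed, 3 with the block and the GC trend removed, 3 with DESeq2 and 0 to 4 when a library was left out, 4 being without FL replicate 3. In ΔTFR4 against FL (0 called) it was 1, 1, 1 and 2 in the same order of settings, and 0 to 1 when a library was left out. In ΔTFR5 against FL (0 called) it was 1 with the GC trend removed, 1 with the block and the GC trend removed, 2 with DESeq2 and 0 to 1 when a library was left out. In ΔTFR5 against empty vector (2 called) it was 4 with the 2 groups alone. The causes were not tested. No member's called direction turned.

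Counts of all genes called moved by over 1.5 times in these settings. In batch 1 FL against empty vector (3247) they were 333 with the GC trend removed, 551 with the block as well, 2108 with the 2 groups alone and 1182 to 4064 when a library was left out. ΔTFR1 against FL (1440) gave 17, 124, 304 and 22 to 2752 in that order, and ΔTFR2 against FL (1432) gave 35, 183, 724 and 0 to 2710, with 2231 and 2178 under the replicate block. ΔTFR1 and ΔTFR2 against empty vector (1 and 2) and against each other (0) gave 2, 4 and 2 with no filter, and ΔTFR2 against empty vector gave 5 with the 2 groups alone. In batch 2 FL against empty vector (217) gave 907 with no filter, 399 with the replicate block, 766 with the GC trend removed, 1887 with both, 2057 with DESeq2, 2 with the 2 groups alone and 6 to 5966 when a library was left out, 5966 being without FL replicate 3. ΔTFR4 against FL (819) gave 1418 with the GC trend removed, 1552 with the block as well, 1929 with DESeq2, 33 with the 2 groups alone and 79 to 2220 when a library was left out. ΔTFR5 against FL (259) gave 486 with no filter, 170 with the replicate block, then 865, 761, 1457, 1 and 19 to 3480 in the order just given. ΔTFR5 against empty vector (1907) gave 3301, 3547, 2952, 5635 and 440 to 4600 in that order. ΔTFR4 against empty vector (4489) gave 9081 with the 2 groups alone and 2309 to 7329 when a library was left out. ΔTFR5 against ΔTFR4 (85) gave 141 with no filter, 130 with the block and the GC trend removed, 239 with DESeq2, 1106 with the 2 groups alone and 39 to 387 when a library was left out.

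Same-numbered libraries shared little of their deviation from the group mean. Their r ran from -0.127 to 0.18 in batch 1, with 3 of 18 pairs over 0.1, and from -0.142 to 0.197 in batch 2, with 4 of 18. Between libraries of other numbers it ran from -0.163 to 0.144 and from -0.253 to 0.162. These weak values do not settle whether the numbers pair the libraries. The replicate block alone left 1 member called in batch 1 FL against empty vector, 3 in ΔTFR4 and 2 in ΔTFR5 against empty vector, and 0 in batch 2 FL against empty vector. Low counts limit CYP2R1 in batch 1 (13 to 29 counts a library) and RXRG and ITGB6 in batch 2.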
